A study of Mus musculus with 12 samples.

Results

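The 36 genes described here encode proteins of the 2 sides of the synapse. They were taken by gene symbol from a list drawn up for this work with earlier results of these data known. Of 16482 genes in the count table all 36 were present, and all 36 were among the 12623 genes with enough counts to be tested. They comprise 19 presynaptic genes (vesicle membrane, membrane fusion, active zone and adhesion) and 17 postsynaptic genes (adhesion, scaffolds, calmodulin signalling, and AMPA and NMDA receptor subunits). RNA of whole-brain homogenates from C57BL/6 mice was counted in 12 libraries by the bulk variant of MARS-seq, a method that reads tags at the 3′ ends of transcripts. Mice given conduritol B epoxide (CBE) together with GZ-667161 gave 4 libraries of postnatal day 40 (replicates 2 to 5). Mice given CBE alone gave 4 libraries, of which replicates 4 and 6 were of day 40 and replicates 2 and 3 of day 34. Mice given PBS, the vehicle control, gave 4 libraries of day 40 (replicates 2 to 5). CBE blocks glucocerebrosidase, the lysosomal enzyme that fails in Gaucher disease, and GZ-667161 blocks the synthase that makes the stored glucosylceramide, so the comparisons ask what the block does in the brain and what reducing the substrate changes. The labels give no dose, no sex and no number of mice per library, and do not say that the libraries of a group came from separate mice, so the p-values below measure the spread among these libraries.

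At a synapse, an action potential opens calcium channels, synaptotagmin senses the calcium, and the SNARE proteins fuse a docked vesicle with the membrane at the active zone. The transmitter crosses the cleft to receptors that scaffold proteins hold in the postsynaptic density, where calmodulin-dependent kinase adjusts their number. Neurexins and neuroligins join the 2 membranes across the cleft.

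Homer1, Syn1, Cplx1 and Dlg4 were 4 of the members that were lower after CBE. Their promoters are shown because these were the lower members in which the core TGACG of the cAMP response element was found. Of the 11 lower members 8 had a promoter among those searched, and Syngr3, Shank1 and Gria3 had none. Homer1 and Dlg4 also had promoters without the core, which are not shown. Each runs 5′ to 3′ on the gene's strand from 250 bases before to 50 bases after an annotated start in RefSeq (GRCm38.p6, the build also called mm10). Capitals mark the core TGACG or its complement CGTCA, and in Syn1 also the full element TGACGTCA, which holds the core on each strand, and TTCAGCACC, the left arm of the element bound by the repressor REST.
Homer1 promoter, chr13:93303507-93303806, plus strand: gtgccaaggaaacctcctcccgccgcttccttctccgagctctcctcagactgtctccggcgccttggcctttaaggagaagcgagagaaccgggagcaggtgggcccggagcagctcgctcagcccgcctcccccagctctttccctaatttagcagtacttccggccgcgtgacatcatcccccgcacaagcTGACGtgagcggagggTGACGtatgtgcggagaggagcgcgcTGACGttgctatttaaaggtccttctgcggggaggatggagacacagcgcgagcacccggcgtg
Syn1 promoter, chrX:20920869-20921168, minus strand: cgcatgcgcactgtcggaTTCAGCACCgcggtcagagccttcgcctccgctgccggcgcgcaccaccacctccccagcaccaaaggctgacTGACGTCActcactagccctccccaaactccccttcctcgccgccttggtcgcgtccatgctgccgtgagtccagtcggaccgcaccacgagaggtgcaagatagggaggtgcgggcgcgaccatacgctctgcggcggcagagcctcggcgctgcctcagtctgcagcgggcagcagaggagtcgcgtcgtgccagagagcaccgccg
Cplx1 promoter, chr5:108549978-108550277, minus strand: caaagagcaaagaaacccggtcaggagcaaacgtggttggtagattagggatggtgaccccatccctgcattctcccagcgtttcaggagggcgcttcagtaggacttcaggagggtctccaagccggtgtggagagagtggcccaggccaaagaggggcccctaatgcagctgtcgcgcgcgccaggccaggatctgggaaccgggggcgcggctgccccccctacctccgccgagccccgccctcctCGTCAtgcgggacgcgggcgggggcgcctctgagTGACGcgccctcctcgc
Dlg4 promoter, chr11:70023732-70024031, plus strand: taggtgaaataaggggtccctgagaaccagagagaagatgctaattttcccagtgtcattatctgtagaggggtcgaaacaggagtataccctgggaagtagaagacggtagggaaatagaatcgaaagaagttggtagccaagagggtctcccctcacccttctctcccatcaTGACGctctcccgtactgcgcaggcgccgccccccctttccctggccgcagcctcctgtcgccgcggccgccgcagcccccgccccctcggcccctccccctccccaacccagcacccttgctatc

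Homer1 carried 3 copies of the core, whose first bases lay 56, 40 and 14 bases before the start. With chromosome 18, where Camk2a lies, left out for the members, the RefSeq table held 39 promoters of 25 of the 36 members. TGACG, searched on both strands, stood in 4 of 13 promoters of members that were lower after CBE, in 4 of 26 promoters of the remaining members (Grin1, Rab3a, Stx1a and Unc13a) and in 20.8% of all 32851 promoters in the table. The full element TGACGTCA was present in 1.79% of all promoters and, among the members, in Syn1. TTCAGCACC was present in 0.371% of all promoters and in Syn1, Nlgn1 and Unc13a. GCGTGGGCG, the site of EGR factors, was present in 0.612% of all promoters and in Shank3 and Unc13a. These matches describe letters in a window, and no binding was measured.

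Total counts ran from 1758446 to 6521257 per library, lowest in the 2 CBE libraries of day 34. Levels below are CPM, counts scaled to the TMM library size, listed in replicate order. Fold changes are given on the log2 scale with their standard error, from edgeR's quasi-likelihood test, with Benjamini-Hochberg adjustment over all genes tested and a threshold of 0.05. In 3 libraries, 1 per group (replicate 3 of CBE+GZ-667161, replicate 6 of CBE and replicate 3 of PBS), the summed level of 9 striatal neuron markers was 2086 to 2569.8 CPM, against 264 to 462 CPM in the other 9 libraries. Markers of cerebellar neurons were low in every library, with 6 genes summing to 36.1 to 70.1 CPM, although the tissue is labelled whole brain. Replicate 2 of CBE+GZ-667161 and replicate 5 of PBS deviated from their groups together (correlation across genes of 0.42). Xist, made by the inactive X chromosome, was at 7.96 to 25.7 CPM in CBE+GZ-667161 replicates 2, 3 and 5 and PBS replicates 4 and 5 and at most at 0.555 CPM in the rest, all CBE libraries included, while 4 members (Syn1, Syp, Nlgn3 and Gria3) are X-linked.

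After CBE alone, 11 of the 36 synaptic genes were lower than after PBS and 0 were higher. Of all genes tested, 4.04% were lower and 6.95% higher. The 11 were 6 of 19 presynaptic genes (Syn1, Syp, Syngr3, Cplx1, Pclo and Rims1) and 5 of 17 postsynaptic genes (Dlg4, Dlg2, Shank1, Homer1 and Gria3). The median log2 fold change was -0.34 over the members, -0.32 over the presynaptic and -0.38 over the postsynaptic ones, against -0.01 over all genes tested, and 30 of 36 members lay below 0 (51.8% of all genes did). In 14 members, every CBE library was below every PBS library, which held for 7% of all genes, and in 0 members every CBE library was above every PBS library (8.61% of all genes). At an unadjusted p under 0.05, 18 members were lower (11.7% of all genes) and 0 higher (13.1% of all genes), and DESeq2 and limma-voom also called 11 lower and 0 higher. In a bulk homogenate, fewer synapse-bearing neurons and less RNA per neuron cannot be told apart.

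**Figure D1:**
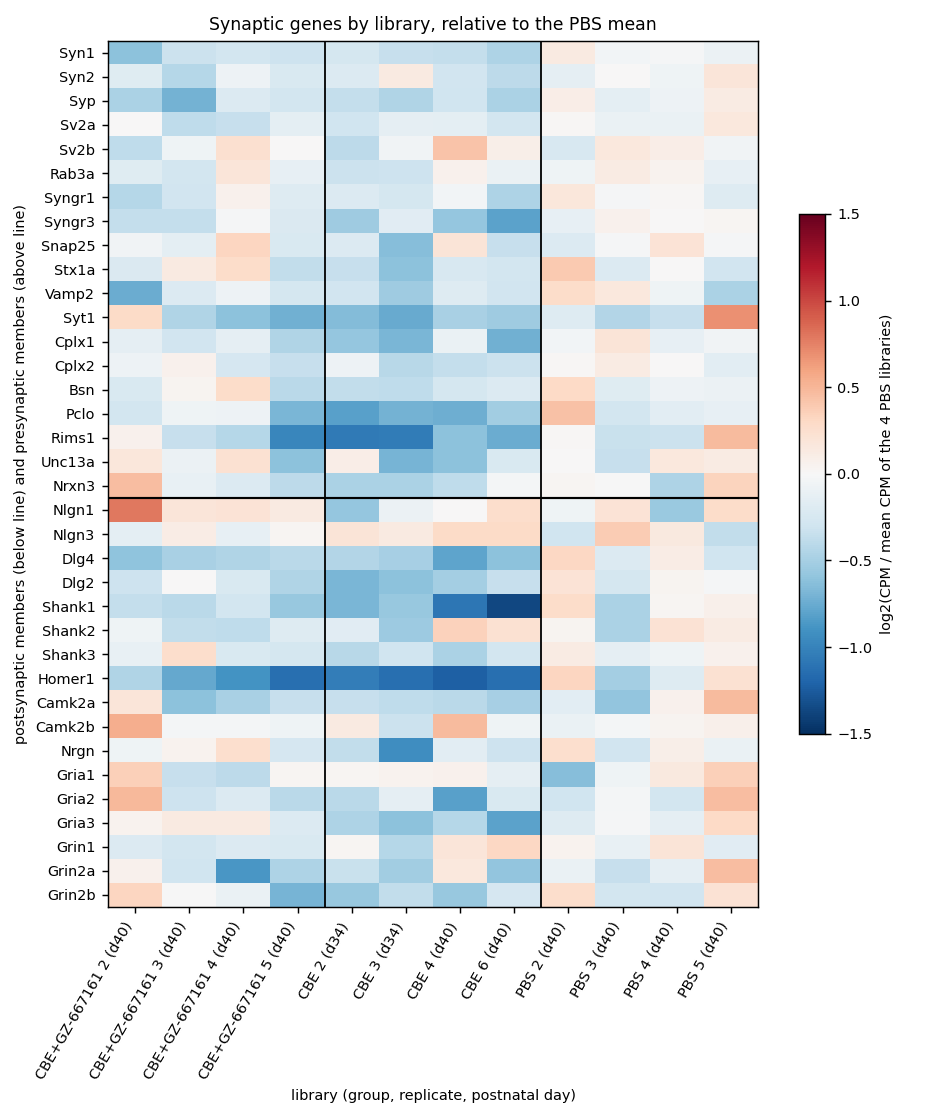
Colour shows the log2 ratio of each synaptic gene's CPM in a library to its mean over the 4 PBS libraries, with genes in rows (presynaptic above the line) and libraries in columns by group, replicate and postnatal day. The Homer1 row is dark blue in all 4 CBE libraries, and 26 to 33 of the 36 members lie below the PBS mean in each CBE library. The same count is 23 to 33 in the CBE+GZ-667161 libraries and 15 to 28 in the PBS libraries. PBS replicate 3, at 28, thus has more members below the PBS mean than CBE replicate 4, at 26.

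By side, the 19 presynaptic genes summed to 10535, 10726, 12298 and 10282 CPM in the CBE+GZ-667161 libraries, to 10093, 9411, 11273 and 9810.2 CPM in the CBE libraries and to 12892, 12743, 12327 and 11915 CPM in the PBS libraries. All 4 CBE sums were below all 4 PBS sums, and the CBE+GZ-667161 sums overlapped both groups. The 17 postsynaptic genes summed to 14990.2, 14465, 15973 and 12499.9 CPM after CBE+GZ-667161, to 11991, 9248, 13215 and 12084 CPM after CBE and to 17123, 12456, 15914 and 15117 CPM after PBS. These groups overlapped, and Nrgn alone made up 54.7% to 71.7% of the postsynaptic sum. Without Nrgn the postsynaptic sum was 4186 to 4561 CPM in the CBE libraries and 4573 to 6121 CPM in the PBS libraries. These ranges did not meet, but CBE replicate 4 (4561 CPM) and PBS replicate 3 (4573 CPM) nearly did. The CBE+GZ-667161 libraries were at 5714, 4454, 4526 and 4384 CPM, so replicates 3, 4 and 5 were also below every PBS library.

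Among the 8 genes of synapsins and the vesicle membrane, 3 fell in CBE brains. Syn1 (chrX:20860511-20921004) encodes synapsin I, which tethers vesicles in the reserve pool. Syn1 was at 592, 727, 748 and 733 CPM in the CBE+GZ-667161 libraries, 759, 710.4, 705 and 657 CPM in the CBE libraries and 998, 882, 892 and 854 CPM in the PBS libraries. Every library with CBE, with or without GZ-667161, was below every PBS library. The log2 fold change of CBE against PBS was -0.36 ± 0.10 (adjusted p = 0.030). Syp (chrX:7638471-7653256), synaptophysin, an abundant vesicle membrane protein, stood at 264, 222, 317 and 303 CPM with CBE+GZ-667161, 285, 267, 297 and 262 CPM with CBE and 389, 329, 343 and 395 CPM with PBS. Again no treated library reached the lowest PBS library, and the CBE change was -0.39 ± 0.12 (adjusted p = 0.043). Syngr3 (chr17:24685092-24689955), a synaptogyrin of the vesicle membrane, was at 255, 255, 323 and 282 CPM with CBE+GZ-667161, 227, 291, 219 and 189 CPM with CBE and 302, 345, 331 and 335 CPM with PBS. The CBE libraries were all below the PBS libraries, while 1 CBE+GZ-667161 library stood within the PBS range. The change was -0.51 ± 0.13 (adjusted p = 0.017).

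The remaining 5 genes of this class did not pass, with CBE log2 fold changes of -0.16 to -0.23 for Syn2, Sv2a, Rab3a and Syngr1 and 0.05 for Sv2b. Rab3a encodes the small GTPase that guides vesicles to the release site. Its level was 1623, 1515, 2082 and 1694 CPM in the CBE+GZ-667161 libraries, 1473, 1480.2, 1908 and 1710.2 CPM in the CBE libraries and 1755, 1998, 1903 and 1691 CPM in the PBS libraries. The 3 groups overlapped (log2 fold change of CBE against PBS -0.16 ± 0.12, adjusted p = 0.43). Sv2a, the vesicle glycoprotein that binds levetiracetam, was lower in every CBE library (405 to 454 CPM) than in every PBS library (465 to 559 CPM), but with an adjusted p of 0.24.

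Of the 6 membrane fusion genes, Cplx1 passed. Cplx1 (chr5:108518554-108550024) encodes complexin 1, which clamps the assembled SNARE complex until calcium arrives. Its CPM was 954, 858, 953 and 770.2 after CBE+GZ-667161, 705, 655, 983 and 637 after CBE and 1022, 1198, 971 and 1017 after PBS. CBE replicate 4 stood inside the PBS range and the other 3 CBE libraries below it, for a log2 fold change of -0.50 ± 0.13 (adjusted p = 0.023). The paralog Cplx2 changed by -0.29 ± 0.11 (adjusted p = 0.11). Vamp2, the SNARE protein of the vesicle, was at 1077, 1574, 1715 and 1508 CPM with CBE+GZ-667161, 1485, 1256, 1589.7 and 1478 CPM with CBE and 2193, 2022, 1719 and 1307 CPM with PBS. These ranges overlapped (-0.32 ± 0.16, adjusted p = 0.23). Snap25 and Stx1a, the SNARE proteins of the plasma membrane, had log2 fold changes of -0.22 and -0.36 with adjusted p of 0.43 and 0.18. Syt1, the calcium sensor synaptotagmin 1, had every CBE library (292 to 353 CPM) below every PBS library (366 to 794 CPM). It did not pass (-0.60 ± 0.24, adjusted p = 0.12), with PBS replicate 5 alone at 794 CPM.

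In the active zone, where Pclo and Bsn organise the release site and Rims1 and Unc13a prime vesicles, 2 of 4 genes fell. Pclo (chr5:14514918-14863459), piccolo, was at 87.9, 101, 101 and 66.4 CPM in the CBE+GZ-667161 libraries, 60.4, 65.0, 64.4 and 74.5 CPM in the CBE libraries and 145, 87.9, 95.5 and 98.0 CPM in the PBS libraries. The CBE libraries lay close together and below all PBS libraries, with a change of -0.69 ± 0.17 (adjusted p = 0.014). Rims1 (chr1:22286251-22805994), which links vesicles to calcium channels, was at 85.9, 64.5, 60.7 and 41.4 CPM with CBE+GZ-667161, 39.3, 39.4, 53.2 and 48.7 CPM with CBE and 82.8, 65.1, 65.3 and 114 CPM with PBS. By the fitted fold change its CBE level was 55.3% of the PBS level (-0.85 ± 0.22, adjusted p = 0.016), and the CBE+GZ-667161 libraries overlapped both groups. Bsn, bassoon, was at 269, 326, 380 and 237 CPM with CBE+GZ-667161, 244, 243, 265 and 274 CPM with CBE and 388, 279, 299 and 298 CPM with PBS. Although every CBE value of Bsn was under every PBS value, it did not pass (-0.30 ± 0.14, adjusted p = 0.21). Unc13a (Munc13-1) did not pass either (-0.32 ± 0.22, adjusted p = 0.39) and had few counts, from 25 to 159 per library.

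The trans-synaptic adhesion genes gave 0 of 3 calls by edgeR (0 at an unadjusted p under 0.05). Nrxn3, the neurexin in the list, was at 74.1, 49.6, 46.9 and 41.0 CPM with CBE+GZ-667161, 38.8, 38.9, 41.3 and 52.6 CPM with CBE and 54.8, 53.4, 39.0 and 67.7 CPM with PBS. The groups overlapped (-0.33 ± 0.20 for CBE against PBS, adjusted p = 0.33). Nlgn3, a neuroligin of both excitatory and inhibitory synapses, stood at 30.2, 36.2, 30.8 and 34.3 CPM with CBE+GZ-667161, 38.3, 36.7, 41.0 and 41.1 CPM with CBE and 27.3, 43.6, 37.3 and 26.0 CPM with PBS. Its CBE value was 0.24 ± 0.17 above PBS on the log2 scale (adjusted p = 0.41), the highest fold change among the 36 members, and that of Nlgn1 was -0.08 ± 0.22 (adjusted p = 0.86).

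The postsynaptic scaffolds held the 2 largest falls among the 36 members, with 4 of 6 lower after CBE and a class median of -0.56. Homer1 (chr13:93299635-93405129) links metabotropic glutamate receptors to the Shank proteins, and its short form Homer1a, made after neuronal activity, uncouples them. Homer1 was at 64.1, 51.3, 46.9 and 40.1 CPM in the CBE+GZ-667161 libraries, 42.6, 40.0, 37.5 and 40.1 CPM in the CBE libraries and 109, 61.5, 76.7 and 103 CPM in the PBS libraries. The 4 CBE libraries lay close together and all below the lowest PBS library. By the fitted fold change the CBE level was 45.5% of the PBS level (-1.13 ± 0.18, adjusted p = 0.00050). The annotation gives Homer1 11 protein-coding transcripts with 8 distinct 3′ ends spread over 44667 bases, and counts by symbol pool them, so the short and long forms cannot be told apart here. Shank1 (chr7:44310253-44360572), a large scaffold beneath the receptors, was at 648, 634, 689 and 563 CPM with CBE+GZ-667161, 516, 562, 395 and 324 CPM with CBE and 1005, 602, 849.9 and 883 CPM with PBS. All CBE libraries were below all PBS libraries, with a CBE change of -0.90 ± 0.17 (adjusted p = 0.0020). They were also below all CBE+GZ-667161 libraries, but CBE replicate 3 (562 CPM) and CBE+GZ-667161 replicate 5 (563 CPM) nearly met.

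Dlg4 (chr11:70016942-70047522) encodes PSD-95, the main scaffold of excitatory synapses. Dlg4 was at 461, 499, 512 and 530.1 CPM with CBE+GZ-667161, 515, 495, 404 and 454 CPM with CBE and 869, 604, 757 and 568 CPM with PBS. Neither treated group reached the PBS range, and the CBE change was -0.58 ± 0.13 (adjusted p = 0.0076). Dlg2 (chr7:90476672-92449247), its relative PSD-93, was at 145, 182, 154 and 132 CPM with CBE+GZ-667161, 112, 118, 126 and 141 CPM with CBE and 207, 150.4, 185 and 178 CPM with PBS. The CBE libraries lay below the PBS libraries (-0.53 ± 0.13, adjusted p = 0.013). Shank3 had the same separation, at 68.6 to 79.5 CPM with CBE and 87.7 to 104 CPM with PBS, but missed the threshold (-0.37 ± 0.13, adjusted p = 0.083). For Shank2 the value was 0.03 ± 0.19 (adjusted p = 0.94).

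Of the receptor and calmodulin genes, Gria3 was the 1 of 9 that passed. Gria3 (chrX:41400854-41678601), an AMPA receptor subunit, was at 50.9, 53.7, 53.6 and 42.8 CPM in the CBE+GZ-667161 libraries, 35.6, 32.2, 36.4 and 28.1 CPM in the CBE libraries and 43.1, 48.3, 44.4 and 60.3 CPM in the PBS libraries. Every CBE library was below every library of both other groups (-0.58 ± 0.15 against PBS, adjusted p = 0.018). Gria1, the AMPA subunit studied most in synaptic potentiation, was at 384, 237, 230 and 307 CPM with CBE+GZ-667161, 307, 312, 314 and 273 CPM with CBE and 193, 288, 334 and 386 CPM with PBS. Its groups had nearly equal means (0.00 ± 0.19, adjusted p = 0.99), and Gria2, the subunit that sets calcium permeability, had -0.38 ± 0.21 (adjusted p = 0.28). Grin1, the obligatory NMDA receptor subunit, was at 552, 523, 551 and 540.4 CPM with CBE+GZ-667161, 648, 469, 717 and 783 CPM with CBE and 657, 588, 724 and 563 CPM with PBS. It did not pass (0.05 ± 0.13, adjusted p = 0.86), nor did Grin2a (-0.29 ± 0.24, adjusted p = 0.48) or Grin2b (-0.44 ± 0.18, adjusted p = 0.15), which set the channel's kinetics.

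Nrgn encodes neurogranin, a postsynaptic protein that holds calmodulin. Nrgn was at 9277, 10011, 11447 and 8116 CPM with CBE+GZ-667161, 7469, 5063, 8655 and 7772 CPM with CBE and 11441, 7883, 10229.9 and 8997 CPM with PBS. CBE replicate 4 stood within the PBS range and the other 3 CBE libraries below it, with a change that did not pass (-0.41 ± 0.16, adjusted p = 0.10). The kinase subunits Camk2a and Camk2b gave -0.41 ± 0.19 (adjusted p = 0.20) and 0.08 ± 0.16 (adjusted p = 0.80).

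**Figure D2:**
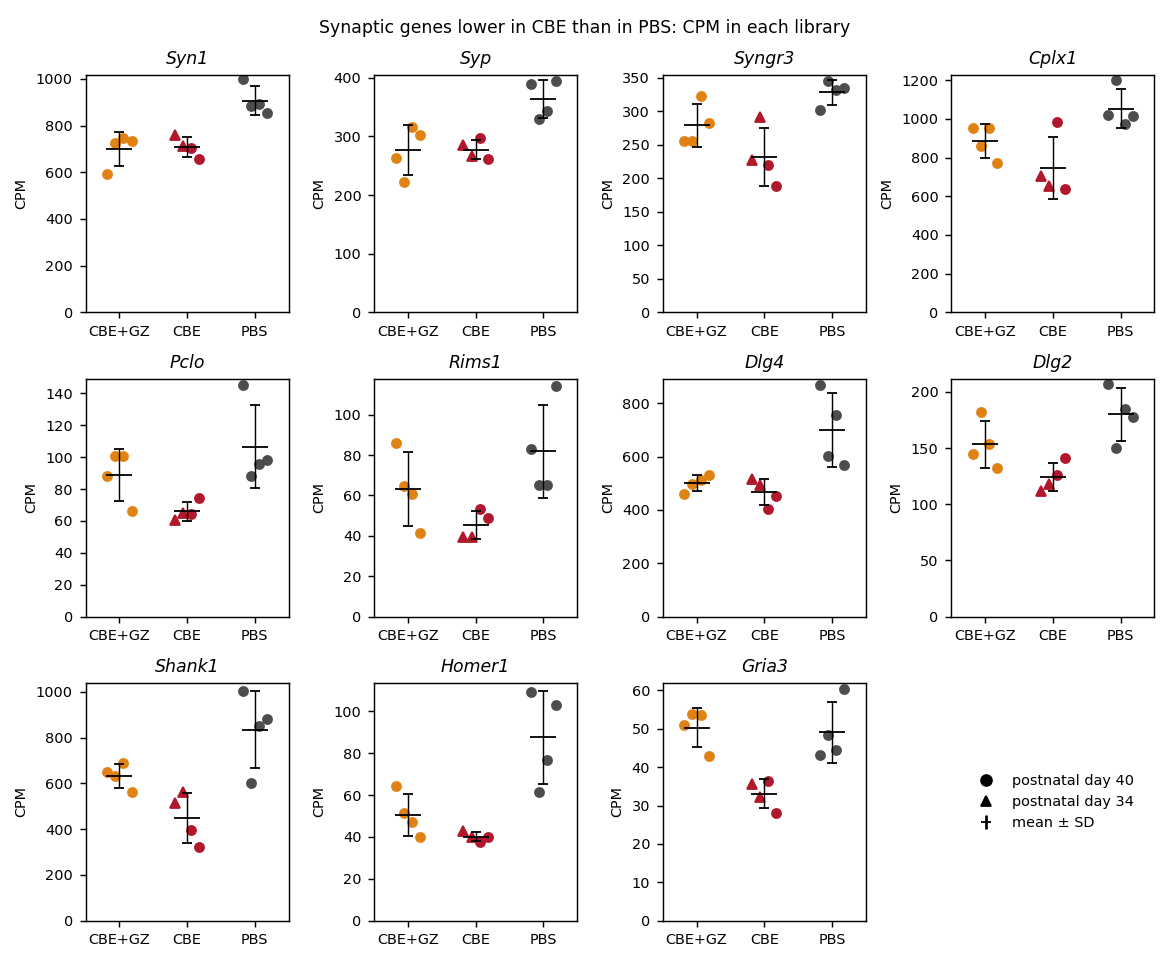
Each panel shows CPM in every library of 1 of the 11 genes that fell in CBE brains, for CBE+GZ-667161, CBE and PBS from left to right, with triangles for day 34, circles for day 40 and bars for the mean and SD of 4 libraries. In every panel but that of Cplx1 the CBE points lie wholly below the PBS points, and in the Gria3 panel the CBE+GZ-667161 points, at 42.8 to 53.7 CPM, overlap the PBS points.

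How firmly these 11 calls stood differed by gene. Homer1, Shank1 and Dlg4 passed whichever of the 12 libraries was left out, with log2 fold changes of -1.25 to -0.99, -1.02 to -0.76 and -0.67 to -0.44. Leaving out PBS replicate 2 ended the calls of Pclo (-0.48, adjusted p = 0.066) and Dlg2 (-0.43, adjusted p = 0.067), and leaving out PBS replicate 5 ended that of Rims1 (-0.65, adjusted p = 0.058). Gria3 was lost without PBS replicate 5 or CBE replicate 6 (-0.50 to -0.46, adjusted p of 0.068 to 0.081). Syngr3 was lost without PBS replicate 3 or CBE replicate 4 or 6 (-0.47 to -0.41, adjusted p of 0.053 to 0.072). Cplx1 was lost without PBS replicate 2 or 3 or CBE replicate 2, 3 or 6 (-0.49 to -0.41, adjusted p of 0.054 to 0.092). Syn1 was lost without PBS replicate 2, 3 or 4 or CBE replicate 3, 4 or 6 (-0.37 to -0.28, adjusted p of 0.051 to 0.13). Syp was lost without any 1 of the 8 CBE and PBS libraries (-0.42 to -0.34, adjusted p of 0.055 to 0.14). Across these single omissions the count of lower members was 6 to 11, with 6 without PBS replicate 2 or CBE replicate 6 and 7 without PBS replicate 3. For single omissions the share of all genes called is not given, here or below. Losses of calls under them therefore cannot be told from fewer calls over all genes. Without the 3 libraries high in striatal markers, 6 members were lower (Dlg2, Dlg4, Homer1, Pclo, Rims1 and Shank1), where 1.04% of all genes were lower, against 4.04% with all libraries. With Xist as a term, the calls of Syp (adjusted p = 0.051), Gria3 (0.062) and Rims1 (0.065) ended.

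With GZ-667161 given alongside CBE, Homer1 was the single member lower than in PBS brains. Its mean was 50.6 ± 10.1 CPM with CBE+GZ-667161 and 87.6 ± 22.4 CPM with PBS (SD, n = 4 each). By the fitted fold change its level was 58.0% of that in PBS (-0.79 ± 0.18, adjusted p = 0.016), and CBE+GZ-667161 replicate 2 stood above the lowest PBS library. Lower calls took up 0.333% of all genes in this comparison and higher calls 3.11%, and 0 members were higher. The median over the members was -0.21, with -0.21 for presynaptic and -0.08 for postsynaptic genes and 0.00 for all genes. In 5 members (Syn1, Syp, Cplx1, Dlg4 and Grin1) every CBE+GZ-667161 library was below every PBS library, against 3.12% of all genes, and the reverse held for 0 members and 6.65% of all genes. Below 0 lay 32 of 36 members and 50.1% of all genes. At an unadjusted p under 0.05, 5 members were lower (4.94% of all genes) and 0 higher (8.19% of all genes).

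Syn1 (-0.37 ± 0.10) and Dlg4 (-0.48 ± 0.13) each had an adjusted p of 0.052, and Syp (-0.40 ± 0.12) had 0.088. DESeq2 called these 3 with Homer1, and limma-voom called Homer1 and Syn1. The Homer1 call was lost on leaving out 1 of 4 libraries, namely replicates 2 and 5 of PBS and replicates 4 and 5 of CBE+GZ-667161 (-0.73 to -0.64, adjusted p of 0.056 to 0.076).

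CBE+GZ-667161 against CBE gave 0 calls among the 36 members by edgeR, with 0.444% of all genes higher and 0.832% lower, and 0 by limma-voom. The members' median was 0.22, against 0.01 over all genes, and 9 of 36 members lay below 0, against 48.8% of all genes. At an unadjusted p under 0.05, 7 members were higher with GZ-667161 (8.02% of all genes) and 0 lower (8.5% of all genes). Gria3 came nearest, at 50.2 ± 5.15 CPM with CBE+GZ-667161 and 33.1 ± 3.76 CPM with CBE (SD, n = 4 each), 0.61 ± 0.15 on the log2 scale with an adjusted p of 0.055, and DESeq2 called it (adjusted p = 0.019). Gria3 also passed without CBE+GZ-667161 replicate 5 (0.67, adjusted p = 0.037) or without PBS replicate 5 (0.61, adjusted p = 0.043). Shank1 (0.50 ± 0.17, adjusted p = 0.15), Shank3 (0.30 ± 0.13, adjusted p = 0.25) and Gria3 were the 3 members whose CBE+GZ-667161 libraries all lay above the CBE libraries, against 4.11% of all genes. Nlgn3 was the 1 member with the reverse order (-0.26 ± 0.17, adjusted p = 0.47), against 3.98% of all genes. The nearest CBE and CBE+GZ-667161 libraries almost met for Shank1 (562 and 563 CPM) and Shank3 (79.5 and 80.2 CPM). Syn1, Syp and Dlg4 had log2 fold changes of -0.02, -0.01 and 0.10 between the 2 treated groups. Without the CBE libraries of day 34, Shank1 passed as higher (0.82, adjusted p = 0.020) and Grin1 as lower (-0.47, adjusted p = 0.040) with GZ-667161. The 3 comparisons share libraries, so their fold changes are set side by side here and not related to each other.

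**Figure D3:**
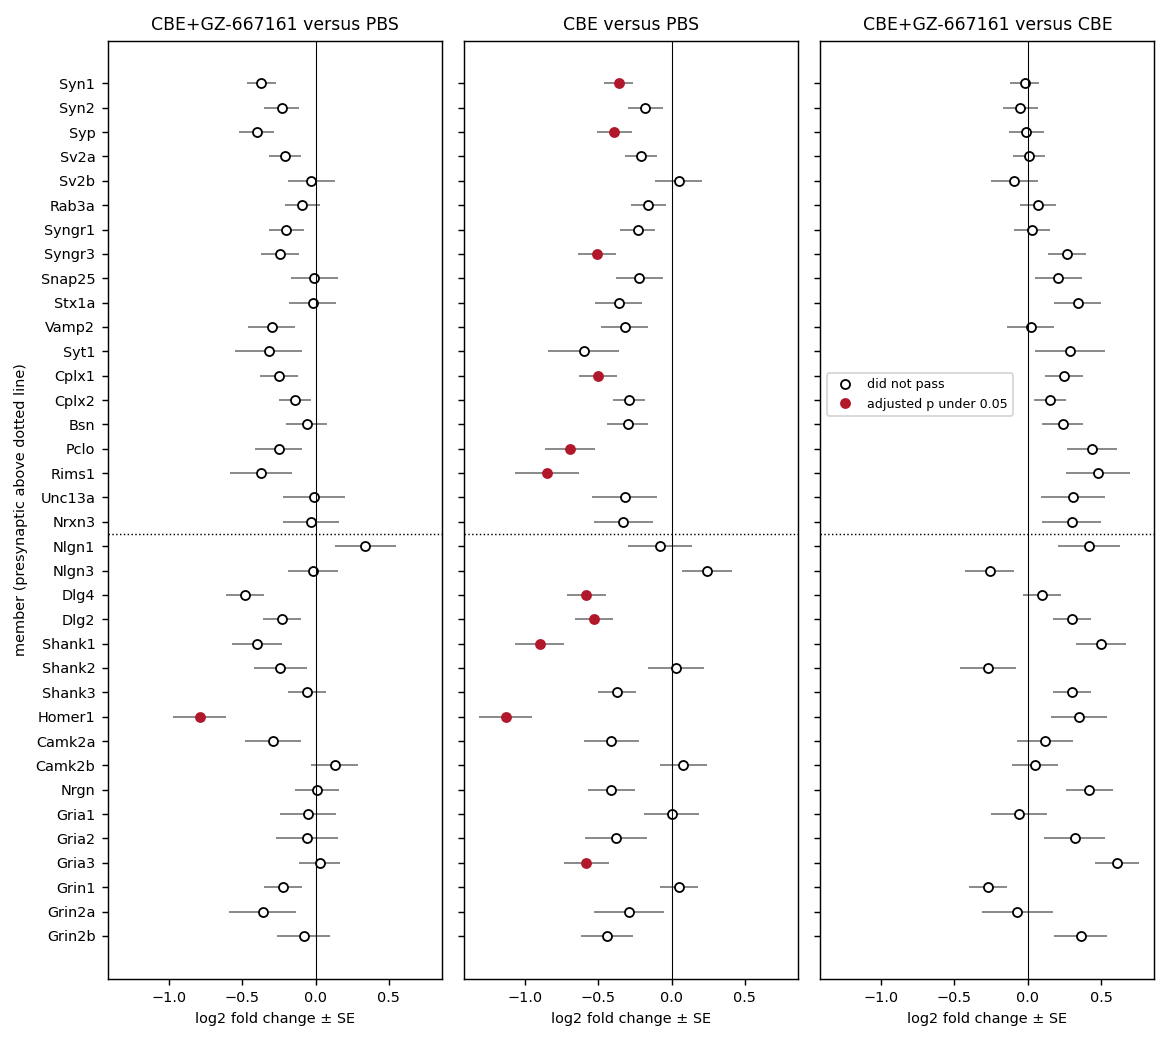
Points give the log2 fold change of each synaptic gene and lines its standard error in 3 panels for CBE+GZ-667161 over PBS, CBE over PBS and CBE+GZ-667161 over CBE, with filled points at an adjusted p under 0.05 and presynaptic genes above the dotted line. Filled points number 1, 11 and 0 in the 3 panels, and Homer1 is filled in both comparisons with PBS.

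The CBE group mixed 2 ages, and day 40 against day 34 within it gave 0 calls among the members (0.224% of all genes were higher and 0.389% lower), 0 by DESeq2 and 0 by limma-voom, with 3 members lower at an unadjusted p under 0.05 (8.44% of all genes) and 3 higher (6.68% of all genes). Shank1 was at 395 and 324 CPM on day 40 and 516 and 562 CPM on day 34 of CBE (-0.61 ± 0.19, adjusted p = 0.15). Against PBS, which was of day 40, 6 members were lower in the day 40 CBE libraries (Dlg4, Gria3, Homer1, Shank1, Syn1 and Syngr3), where 6.08% of all genes were lower, and 0 were higher, against 8.15% of all genes. In the day 34 CBE libraries 5 were lower than PBS (Cplx1, Dlg2, Homer1, Rims1 and Shank1), where 0.867% of all genes were lower, and 0 were higher, against 5.04% of all genes. Homer1 and Shank1 were in both lists, with log2 fold changes of -1.18 ± 0.23 and -1.22 ± 0.17 for day 40 and -1.07 ± 0.24 and -0.61 ± 0.17 for day 34. These counts rest on 2 CBE libraries each, and the day 34 count was 1 without CBE replicate 2, 0 without CBE replicate 3 and 2 without PBS replicate 2, while the day 40 count was 3 without CBE replicate 4 or 6. Day 34 has no PBS libraries, so age and CBE cannot be told apart there.

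Levels of neuronal and glial markers moved in the same libraries. The 16 pan-neuronal genes summed to 8916 to 10361 CPM in CBE+GZ-667161 libraries, 8063 to 8666 CPM in CBE libraries and 10467 to 11206 CPM in PBS libraries, with no overlap between either treated group and PBS. The 10 microglia markers summed to 1623 to 2711 CPM with CBE+GZ-667161, 2416 to 3797 CPM with CBE and 709 to 793 CPM with PBS, and 8 of them were higher after CBE. The 9 astrocyte markers summed to 4191 to 4840 CPM with CBE+GZ-667161, 5495 to 5692 CPM with CBE and 3810.3 to 4449.9 CPM with PBS, and 5 of them were higher after CBE. The 8 oligodendrocyte markers, genes of the myelin sheath and its cells, summed to 3802 to 8772 CPM with CBE+GZ-667161, 3114 to 6353 CPM with CBE and 6050.2 to 7528 CPM with PBS, so the groups overlapped. Their median log2 fold change in CBE against PBS was -0.48, with all 8 below 0, 5 of them at an unadjusted p under 0.05 and 0 past the adjusted threshold. The 8 excitatory neuron markers, which share Slc17a7 with the other presynaptic genes described below, summed to 1387 to 1845 CPM with CBE+GZ-667161, 1396 to 1647 CPM with CBE and 1820.1 to 2140.2 CPM with PBS. The 8 inhibitory neuron markers summed to 1769 to 2262 CPM with CBE+GZ-667161, 1749.6 to 2081 CPM with CBE and 2086 to 2505 CPM with PBS. In both of these lists every CBE sum was below every PBS sum, but the inhibitory sums nearly met, at 2081 CPM in CBE and 2086 CPM in PBS. Slc17a7 alone made up most of the excitatory sum, at 1116, 1125, 932 and 1128 CPM with CBE and 1626, 1434, 1502 and 1327 CPM with PBS. In each list 1 gene was lower after CBE (4.04% of all genes) and 7 of 8 lay below 0 (51.8% of all genes), with medians of -0.24 and -0.21. The 5 endothelial markers summed to 167 to 240 CPM with CBE+GZ-667161, 121 to 189.8 CPM with CBE and 165 to 189 CPM with PBS, and the 5 choroid plexus markers to 78.8 to 406, 129 to 577 and 73.7 to 176 CPM in the same groups. Endothelial and choroid plexus sums overlapped between CBE and PBS. No pan-neuronal, excitatory, inhibitory, microglia, astrocyte, oligodendrocyte or endothelial marker was at 0 in any library, while 3 choroid plexus markers (Kl, Folr1 and Kcnj13) were at 0 in at least 1. Their part in the synaptic differences was not tested, and the scaling that follows, which moves all fold changes together, does not test it.

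**Figure D4:**
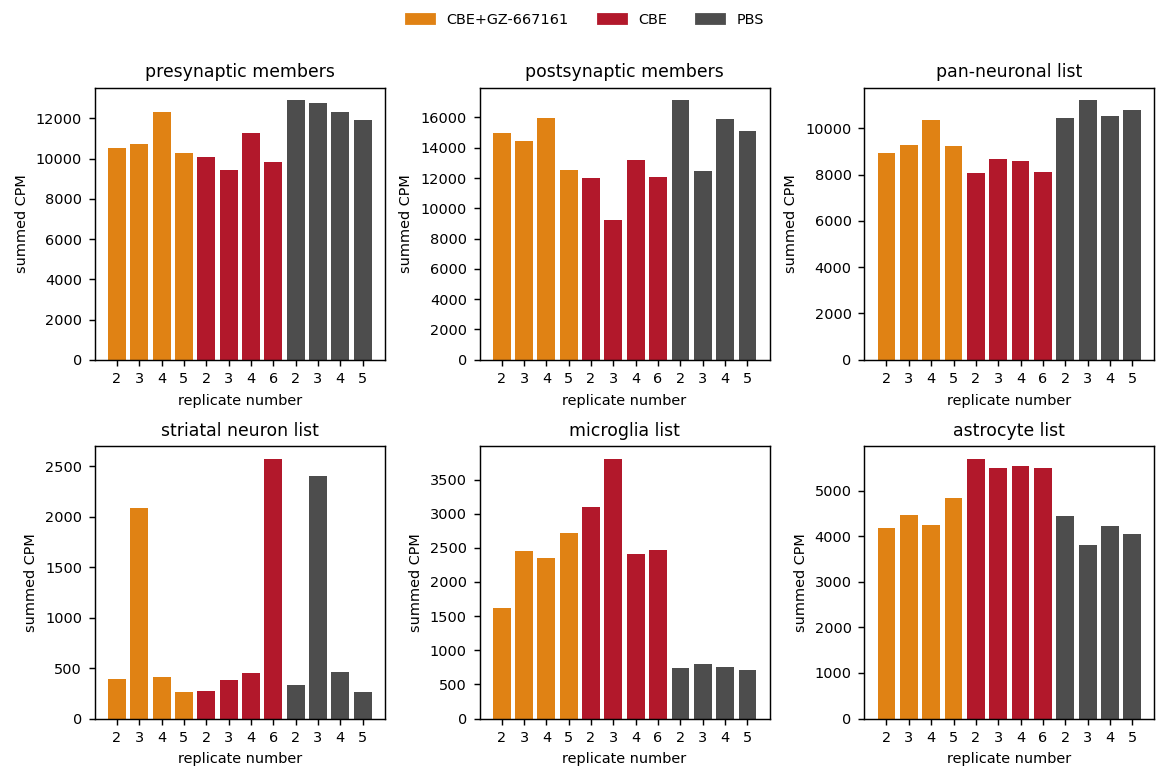
Bars give the summed CPM of presynaptic members, postsynaptic members and 4 marker lists in each of the 12 libraries, grouped as CBE+GZ-667161, CBE and PBS and numbered by replicate. The pan-neuronal sums of CBE brains (8063 to 8666 CPM) stand below those of PBS brains (10467 to 11206 CPM), the microglia and astrocyte sums stand above, and the striatal sum is high in 1 library of each group.

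When counts were scaled to the summed pan-neuronal counts of each library in place of its TMM library size, which raises every CBE fold change by 0.36, the members' median in CBE against PBS was 0.02 (presynaptic 0.04, postsynaptic -0.01) and that of all genes 0.35. With every value moved up together, 16 of 36 members lay below 0, against 30 with TMM library sizes. On this scale 2 members were lower than in PBS brains, Homer1 (-0.77 ± 0.20, adjusted p = 0.0095) and Shank1 (-0.54 ± 0.17, adjusted p = 0.026), where 0.594% of all genes were lower. The other 9 calls ended, with Syn1 at 0.01 and Syp at -0.03. Sv2b (0.41 ± 0.15), Nlgn3 (0.61 ± 0.17) and Grin1 (0.41 ± 0.15) passed as higher, where 29.8% of all genes were higher. In CBE+GZ-667161 against PBS on this scale 0 members passed in either direction, where 0.0396% of all genes were lower and 6.2% higher, and Homer1 was at -0.60 (adjusted p = 0.085). In the day 40 CBE libraries against PBS 2 members were lower, where 1.76% of all genes were lower, and 6 were higher, where 26.5% of all genes were higher.

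**Figure D5:**
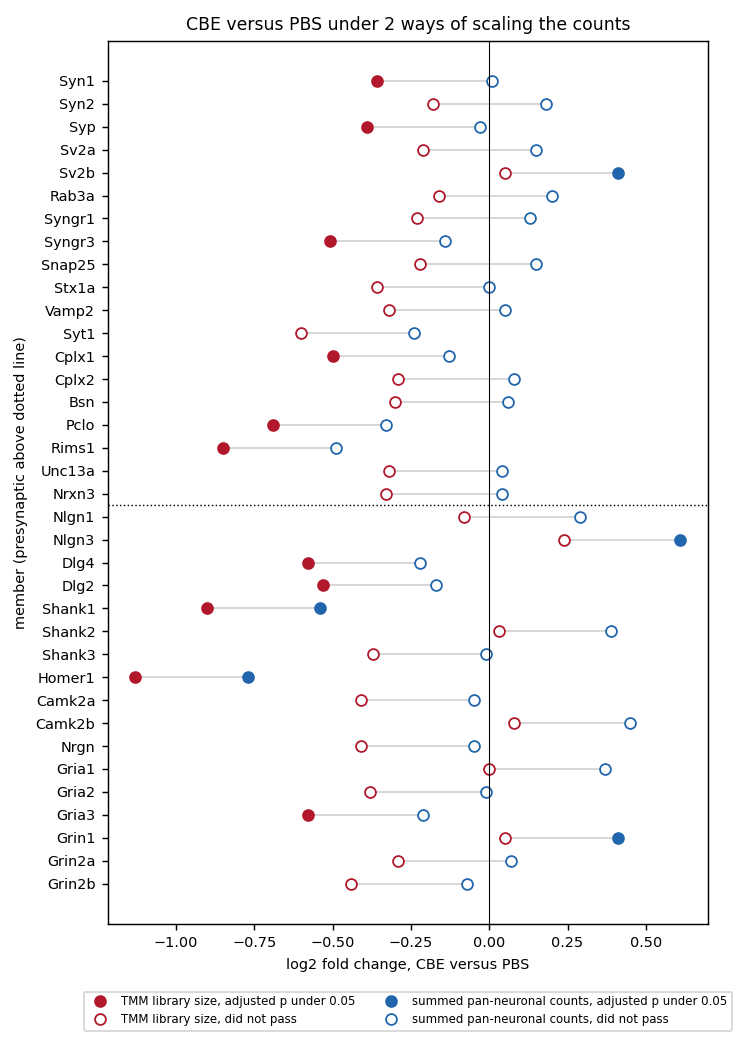
Each row is a synaptic gene, with its log2 fold change in CBE against PBS under TMM library sizes in red and relative to summed pan-neuronal counts in blue, filled where the adjusted p was under 0.05. Blue points scatter around 0 with a median of 0.02, and Homer1 at -0.77 and Shank1 at -0.54 are the filled blue points left of 0.

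Synaptic genes outside the 36 were read from a longer list. Over all genes tested, 4.04% were lower after CBE than after PBS and 6.95% higher. Of 42 other presynaptic genes tested, 6 were lower after CBE and 0 higher, with a median of -0.33. The 4 with the smallest p were Rimbp2, which binds RIM proteins to calcium channels (51.1 ± 4.82 CPM with CBE, 83.2 ± 2.21 CPM with PBS, -0.71 ± 0.12, adjusted p = 0.00056), and Syt7 (-1.25 ± 0.25), Syt2 (-1.06 ± 0.23) and Rph3a (-0.77 ± 0.17), calcium-binding proteins of release. Of 42 other postsynaptic genes 8 were lower and 0 higher, with a median of -0.27, among them Agap2 (-0.54 ± 0.11), Dlgap3, which joins PSD-95 to Shank (-0.59 ± 0.14), Iqsec1 (-0.61 ± 0.16) and Arc, an immediate early gene that acts in AMPA receptor endocytosis (-1.76 ± 0.47). Arc varied widely, with 288, 114, 29.8 and 86.8 CPM in CBE libraries and 714, 237, 463 and 321 CPM in PBS libraries. The postsynaptic count was 1 without PBS replicate 2, 3 without CBE replicate 4 or 6, 4 without CBE replicate 2 and 5 without PBS replicate 5.

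Of the 16 pan-neuronal genes 10 were lower after CBE and 0 higher, where 4.04% of all genes were lower and 6.95% higher. The 16 log2 fold changes ran from -0.92 to -0.12 with a median of -0.50, and 6 genes did not pass. Those with the smallest p were Nefl (64.3 ± 6.89 CPM with CBE, 121 ± 14 CPM with PBS, -0.92 ± 0.13), Nefm (-0.86 ± 0.13), Tubb3 (-0.75 ± 0.15) and Stmn3 (-0.48 ± 0.10). They encode neurofilament subunits, a neuronal tubulin and a tubulin-binding protein. The count of 10 was 6 without CBE replicate 6. In CBE+GZ-667161 against PBS, edgeR called 0 genes in each of the 3 lists, with 10 presynaptic, 6 postsynaptic and 6 pan-neuronal genes lower at an unadjusted p under 0.05 (4.94% of all genes), and DESeq2 called 2, 2 and 0 of them lower. Against CBE, Rimbp2 (0.71 ± 0.12, adjusted p = 0.011), Rph3a (0.77 ± 0.17, adjusted p = 0.040) and Nefl (0.69 ± 0.13, adjusted p = 0.017) were higher with GZ-667161, as were 0.444% of all genes.

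In the authors' deposited table, 11 members had an adjusted p under 0.05 in the comparison of CBE and PBS, and all 11 were those called here. The authors' deposited table gives its fold changes the other way round, with PBS on top, so that Homer1 stands there at 1.14 (adjusted p of 3.7e-05) and Shank1 at 0.90 (adjusted p of 4.6e-06). For CBE+GZ-667161 and PBS the authors' deposited table has 3 members under 0.05, Homer1, Dlg4 (adjusted p = 0.010) and Syp (adjusted p = 0.025). For CBE+GZ-667161 and CBE the authors' deposited table has 1, Gria3 (adjusted p = 0.046).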

How the data were processed

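Whole-brain RNA was measured in 12 libraries by bulk MARS-seq, per the labels' protocols. The deposited counts per gene symbol were raw whole numbers, and the submitters' processing notes name cutadapt, HISAT 0.1.6, HTSeq and DESeq2 with build mm10, without roles. How molecular identifiers and strand entered the counting was not given in the sources used here. In 23 of 16505 entries a date stood for the symbol (0.266% to 0.347% of counts), and these were left out of library sizes and tests. The authors' deposited log2 fold changes and adjusted p-values were used only beside the results computed here. A library-scaled copy of the counts was not used.

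Genes were kept with filterByExpr (minimum count 10, total 15), given TMM factors and tested in edgeR 4.0.16 with glmQLFit and glmQLFTest, in 1 fit of the 3 groups, or of 4 groups where the CBE days were separated, with Benjamini-Hochberg adjustment. CPM use the TMM library size, with SD over the libraries of a group. Alternatives were limma-voom (limma 3.58.1), DESeq2 1.42.0, other scalings and filters, fewer groups or libraries, and Xist, replicate number or the striatal sum as terms. A lower total gives a wider error for genes of few counts. Positions are from GENCODE M21 (mm10) and matched all 36 members. Promoters are from a RefSeq table. The steps were tested on simulated data. R 4.3.3 was used for the tests, and matplotlib 3.10.9 and pandas 2.3.3 under Python 3.11.15 for figures and tables.

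Values in every library are given for members that passed in at least 1 of the 3 agent comparisons and for the member of highest mean CPM in each role class. From each longer list up to 4 passing genes with the smallest p in CBE against PBS were named. Members, lists and this rule were chosen with earlier results of these data known. Other genes named were chosen after their values were seen.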

Additional observations from a re-analysis of the deposited data

Results flagged for a closer look

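Over the 36 members and 3 groups, 108 sets of 4 libraries were examined for a library far from the other 3 of its group, and 4 sets had one. By chance about 1 in 20 sets would. In 3 of the 4 the library was CBE+GZ-667161 replicate 2. Its Syn1 level was 592 CPM, against 727 to 748 CPM in the other 3 CBE+GZ-667161 libraries. Its Nlgn1 level, of a neuroligin of excitatory synapses, was 50.2 CPM, against 32.1 to 33.5 CPM in the other 3. Its Camk2b level was 1105 CPM, against 718 to 742 CPM in the other 3. In the fourth set, Syt1 was at 794 CPM in PBS replicate 5, against 366 to 434 CPM in the other 3 PBS libraries.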

How the results depend on the processing

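Counts of members lower after CBE than after PBS (11) were 2 relative to pan-neuronal counts and 6 to 11 with 1 library left out. They were 6 without the day 34 and 4 without the day 40 CBE libraries, and 6 without the 3 libraries high in striatal markers. Of all genes tested, 510 of 12623 were lower with all libraries and 75 of 12623 relative to pan-neuronal counts. The number was 755 of 13606 without day 34, 99 of 13635 without day 40 and 129 of 12366 without the striatal-high libraries. Members higher were 3 relative to pan-neuronal counts, where 29.8% of all genes were higher. For CBE+GZ-667161 against PBS (1) the count was 3 with DESeq2 size factors in edgeR, 4 in DESeq2, 2 in limma-voom and 2 with the striatal sum as a term. It was 0 relative to pan-neuronal counts and 0 to 1 with 1 library left out. Of all genes 42 of 12623 were lower there, 48 with DESeq2 size factors, 52 in limma-voom and 48 with the striatal sum. In DESeq2 the number was 103 of 16482. For CBE+GZ-667161 against CBE (0), members higher were 1 in DESeq2, 1 without day 34 and 0 to 1 with 1 library left out. Members lower were 1 without day 34. Of all genes, 196 of 16482 were higher in DESeq2, and 329 of 13606 were higher and 363 lower without day 34. For day 40 against PBS (6) the count was 2 relative to pan-neuronal counts, with 6 higher (26.5% of all genes were higher there). It was 3 without the striatal-high libraries and 3 to 7 with 1 library left out. Of all genes, 813 of 13372 were lower at day 40, 236 relative to pan-neuronal counts and 221 of 13603 without the striatal-high libraries. For day 34 against PBS (5) the count was 0 relative to pan-neuronal counts and 0 to 7 with 1 library left out. Of all genes, 116 of 13372 were lower at day 34 and 10 relative to pan-neuronal counts. The cause of these changes was not tested, and shares of all genes are not given for counts with 1 library left out. Scaling to pan-neuronal counts moves all CBE log2 fold changes up together (by 0.36, and by 0.37 for day 40), so members above 0 in CBE against PBS numbered 20 of 36 there and 6 with TMM library sizes. Among members called under either scaling, this put Syn1 in CBE at 0.01 and Rab3a in day 40 CBE at 0.34, passing as higher.

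Other presynaptic genes lower after CBE (6) were 3 relative to pan-neuronal counts, 3 without the striatal-high libraries and 5 to 7 with 1 library left out. Other postsynaptic genes (8) were 1 relative to pan-neuronal counts, 2 without day 40, 4 without the striatal-high libraries, 5 without PBS replicate 5 and CBE+GZ-667161 replicate 2 together, and 1 to 10 with 1 library left out. Pan-neuronal genes (10) were 3 relative to pan-neuronal counts, a scaling of the list to its own sum. They were 3 without day 40, 2 without the striatal-high libraries and 6 to 11 with 1 library left out. In CBE+GZ-667161 against PBS (0 each), presynaptic genes were 2 in DESeq2, 1 in limma-voom, 2 with the 2 groups alone, 1 without day 34, 2 without day 40, 1 without that pair of libraries and 0 to 1 with 1 left out. Postsynaptic ones were 2 in DESeq2 and 0 to 2 with 1 left out, and pan-neuronal ones 1 with Xist as a term and 0 to 1 with 1 left out. In CBE+GZ-667161 against CBE (0 lower each), postsynaptic genes were 1 relative to pan-neuronal counts, 1 in DESeq2 and 1 with Xist as a term, and presynaptic ones 1 relative to pan-neuronal counts. The remaining counts were 0 with any 1 library left out. Leaving out the striatal-high libraries or that pair, and the striatal term, were chosen after seeing the data.

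Replicate numbers recur across groups, and whether they pair the samples is not known. Of 10 same-numbered pairs 1 correlated above 0.1 (-0.08 to 0.24), which cannot settle it with 4 libraries per group. With the replicate number as a block, 6 members were lower after CBE (2 at day 34, 1 at day 40), with 4 other postsynaptic and 4 pan-neuronal genes. In CBE+GZ-667161 against PBS 1 other presynaptic gene was lower. Of all genes, 293 of 12623 were lower after CBE with this block, 113 of 13372 at day 34 and 182 of 13372 at day 40.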
